A study of Mus musculus with 68 samples.

Results

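The Reg genes encode small secreted C-type lectins, and the 5 measured here, Reg1, Reg3a, Reg3b, Reg3g and Reg4, were taken by name from a table of 23354 genes with distinct names. Expression was read as FPKM (a fragment count scaled to transcript length and to library size) in 23 intestinal specimens of C57BL/6 mice aged 3 months. The study sought genes and pathways that differ with loss of Cftr, the chloride and bicarbonate channel of the gut epithelium, in Apc wildtype mice and in mice with the Min allele of Apc, a Wnt pathway inhibitor whose loss gives intestinal tumours. Every level below is the mean FPKM of a specimen's sequencing columns, and the order of specimens within a group carries no meaning.

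Apc wildtype mice labelled Cftr knockout gave 2 duodenal tumours, 1 colon tumour, 2 normal duodenum and 2 normal colon specimens, and Apc wildtype Cftr wildtype mice gave 2 normal duodenum and 2 normal colon specimens. ApcMin mice labelled Cftr knockout gave 2 colon and 2 ileum tumours. ApcMin mice heterozygous for Cftr, which the labels also call a knockdown, gave 2 colon and 2 duodenal tumours. ApcMin Cftr wildtype mice gave 2 colon and 2 ileum tumours. In the Apc wildtype knockouts the allele was floxed Cftr with Villin-Cre, a driver active in gut epithelium. The Cftr allele of the ApcMin mice is not given in the sources used here. The labels hold 10 animal numbers for the 23 specimens, and normal colon and normal duodenum came from the same animals. Both ApcMin tumours of a group carried 1 animal number, so in every ApcMin comparison genotype and animal cannot be told apart. The p-values rest on the spread between specimens within groups, pooled over all groups of a fit. Which tissue was epithelium is unclear, since the labels give it for duodenum and the design text for colon, with duodenum taken as the organ without villi.

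Reg3b and Reg3g are antibacterial proteins of the small-intestinal surface. Enterocytes and Paneth cells make them when microbes signal through MyD88 and when interleukin 22 activates STAT3, and in mice Reg3g kills mainly Gram-positive bacteria and helps keep them off the epithelium. Reg1, known as pancreatic stone protein, is made by exocrine pancreas and by regenerating gut epithelium, and Reg4 marks deep crypt secretory cells of the mouse colon as well as goblet and enteroendocrine cells. Human REG3A is a bactericidal lectin. Whether mouse Reg3a has the same role was not measured here.

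In the GRCm38 annotation the chromosome 6 genes stand side by side over 98216 bp, in the order Reg3b (chr6:78370657-78373466, plus strand), Reg3d (78375874 to 78378865, minus), Reg3a (78380709 to 78383827, plus), Reg2 (78395623 to 78408106, plus), Reg1 (78422711 to 78428667, plus) and Reg3g (78466269 to 78468872, minus). These 6 were the only protein-coding genes between the ends of the cluster. Reg4 lies apart on chr3:98222156-98236748 (plus strand). No other annotated gene overlapped any of the 5 members. Their reference transcripts shared no identical stretch of 50 bases, and the closest pairs were Reg3a with Reg3b at 68.9% identity and Reg3b with Reg3g at 68.6%.

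Reg3b and Reg3g stood at opposite ends of this cluster and varied together across specimens (Pearson r of 0.978 on the log2 scale, over 22 samples), while Reg3a, nearer to Reg3b, had an r of 0.691 with it, so the 250 bases before the RefSeq start of each are shown, 5′ to 3′ on the gene's own strand (build GRCm38.p6: Reg3b chr6:78370635-78370884, Reg3g chr6:78468875-78469124, Reg3a chr6:78380459-78380708). Capitals mark the motifs, which were searched on both strands and do not overlap each other. The core of a site for STAT factors was searched as TTCNNNGAA. An E-box, the site of many basic helix-loop-helix and zinc finger factors, was searched as CACCTG. The element on which the transcription machinery assembles near a start was searched as TATAAA.
Reg3b: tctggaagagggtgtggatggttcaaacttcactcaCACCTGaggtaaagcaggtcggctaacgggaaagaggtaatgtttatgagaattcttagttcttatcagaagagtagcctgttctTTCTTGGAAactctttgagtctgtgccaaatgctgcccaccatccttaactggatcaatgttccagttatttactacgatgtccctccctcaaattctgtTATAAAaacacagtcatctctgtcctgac
Reg3g: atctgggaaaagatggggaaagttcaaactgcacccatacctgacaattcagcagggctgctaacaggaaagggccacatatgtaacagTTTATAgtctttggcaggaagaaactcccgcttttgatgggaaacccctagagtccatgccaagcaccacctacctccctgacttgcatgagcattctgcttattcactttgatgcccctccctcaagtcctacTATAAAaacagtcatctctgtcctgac
Reg3a: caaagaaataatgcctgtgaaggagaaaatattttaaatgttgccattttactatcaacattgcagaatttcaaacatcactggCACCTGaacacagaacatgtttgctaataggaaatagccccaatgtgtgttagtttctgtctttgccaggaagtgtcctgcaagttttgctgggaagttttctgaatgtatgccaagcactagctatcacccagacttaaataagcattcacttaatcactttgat

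Counting the first transcribed base as 0, the Reg3b stretch held TTCNNNGAA at -129, CACCTG at -214 and TATAAA at -29. In Reg3g the plus strand held TATAAA at -27 and the minus strand held it at -161 (printed as its complement), while Reg3a held CACCTG at -166 and no other match. The motifs were searched from 250 bases before to 50 after the start. Over 32851 RefSeq promoters of that length, a set that left out a chromosome, 8.3% held TTCNNNGAA, 20.2% held CACCTG and 13.6% held TATAAA. A match describes these letters, and no match says only that they are not in this window. Aligned over that window, Reg3b and Reg3g were 69.0% identical, the highest of the 21 pairs of Reg promoters, and Reg3a was 49.9% identical to Reg3b and 55.2% to Reg3g.

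**Figure D1:**
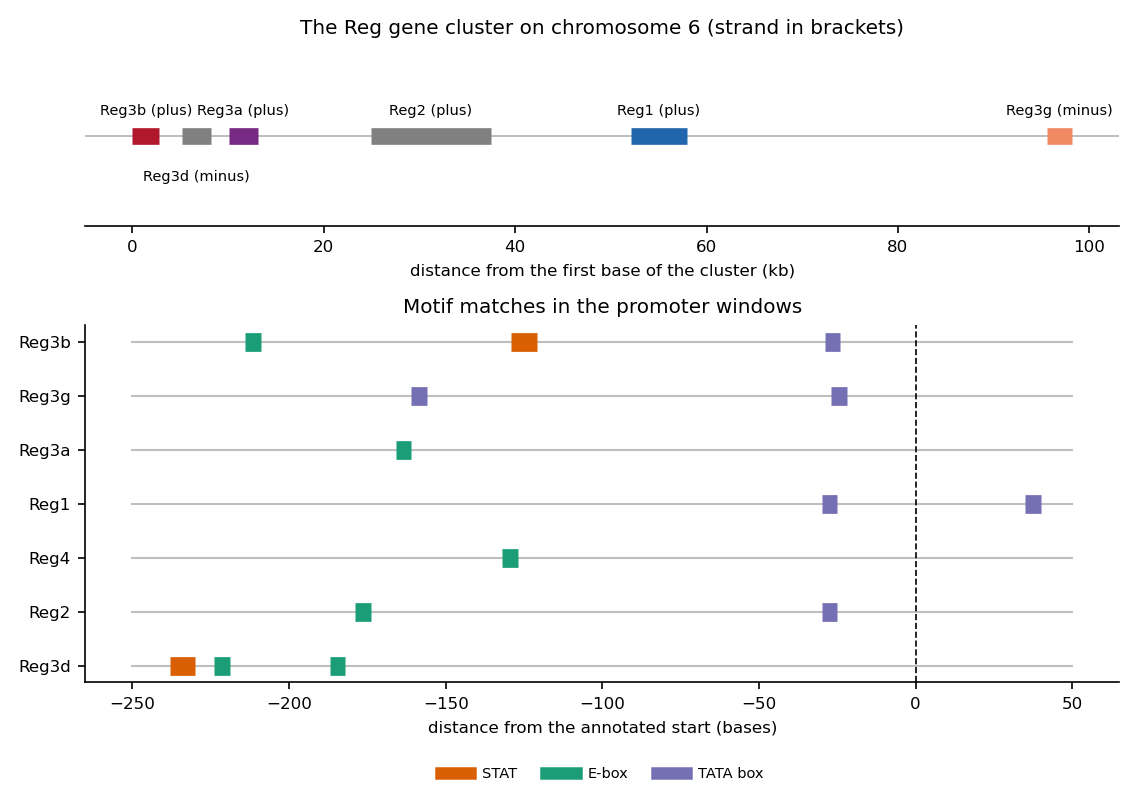
The Reg cluster of chromosome 6 drawn to scale by distance in kb from the Reg3b end, with the strand in brackets (top), and motif matches by distance in bases from the RefSeq start, 250 before to 50 after it (bottom). Reg3b and Reg3g lie at the ends, and Reg1, Reg3b, Reg3g and Reg2 have a TATAAA match that starts between -30 and -27.

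Cftr RNA was at 11.2 to 77.2 FPKM in 11 specimens labelled knockout, at 9.58 to 51.7 FPKM in 4 heterozygous ones and at 18.0 to 32.0 FPKM in 8 wildtype ones. Where the allele is floxed, as in the Apc wildtype knockouts, a value for the whole gene does not check the label. The ApcMin specimens labelled knockout held 14.3 to 40.1 FPKM, which did not separate them from wildtype, so their label is not checked by Cftr RNA. Relative depth differed 1.84-fold over the 68 columns. Between lanes of a library no member at 10 FPKM or more differed more than 1.24-fold (135 lane pairs). The 2 wildtype duodenum specimens differed by no more than their lanes did (ratio of spreads 0.924 in run 1 and 0.985 in run 2, against 2.05 to 6.23 in the other groups) and were counted as 1 sample. Xist, an RNA that marks female cells, was at 24.0 to 55.6 FPKM in all 12 ApcMin tumours and at 34.2 FPKM in knockout duodenal tumour 1, against 0.0212 to 0.461 FPKM in the other 10 specimens. Comparisons of ApcMin tumours with normal tissue were thus also comparisons of female with male tissue, and the part of sex in the Reg values was not tested.

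There were 2 sequencing runs with 11 specimens in both, and for a pair of these the runs disagreed on Reg genes. In wildtype colon 2, Reg3b was at 2599 FPKM in run 1 and at 8.80 FPKM in run 2, Reg3g at 1142 and 4.32 FPKM, Reg1 at 178 and 1.88 FPKM, and Reg3a at 10.3 and 0.240 FPKM. Reg4 was at 227 and 219 FPKM there. In the knockout colon tumour of an Apc wildtype mouse, Reg1 was at 37.1 FPKM in run 1 and at 3.34 FPKM in run 2 and Reg3a at 1.93 and 0.292 FPKM, while Reg3b (1594 and 1536 FPKM) differed little. In the 9 other specimens no member at 10 FPKM or more differed over 1.68-fold between runs, with a median of 1.08-fold. The excess of run 1 over run 2 in wildtype colon 2 amounted to 8.56% of the run 1 level of knockout duodenum 2 for Reg1, 8.26% for Reg3a, 8.56% for Reg3b and 8.53% for Reg3g. Set against wildtype duodenum 1 the same excess came to 5.81%, 2.13%, 176% and 110%. Markers of Paneth cells moved with it, summing to 1668 FPKM over 11 genes in run 1 and to 159 FPKM in run 2. So did those of small-intestinal enterocytes, summing to 2286 FPKM over 14 genes in run 1 and to 300 FPKM in run 2. Changes of Reg3b and Reg3g in comparisons with wildtype colon that hold that library are therefore given with and without it. Other fits drew part of their spread from it, and only some of them are given without it.

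**Figure D2:**
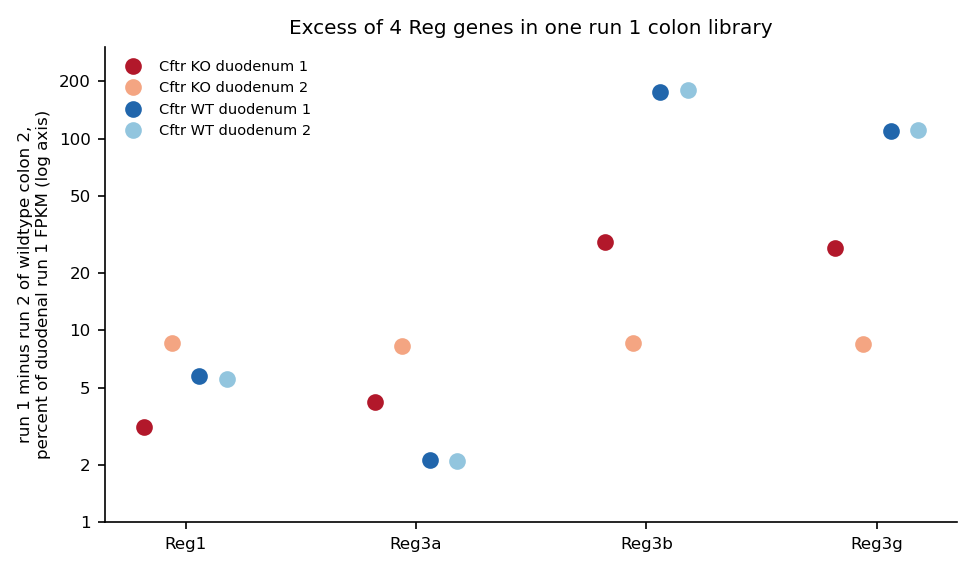
Excess of the run 1 over the run 2 library of wildtype colon 2, in percent (log axis) of the run 1 level of each of 4 duodenal specimens, for Reg1, Reg3a, Reg3b and Reg3g. Against knockout duodenum 2 these genes lie between 8.26% and 8.56%, while against the other duodenal specimens they spread from 2.09% to 179%.

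**Figure D3:**
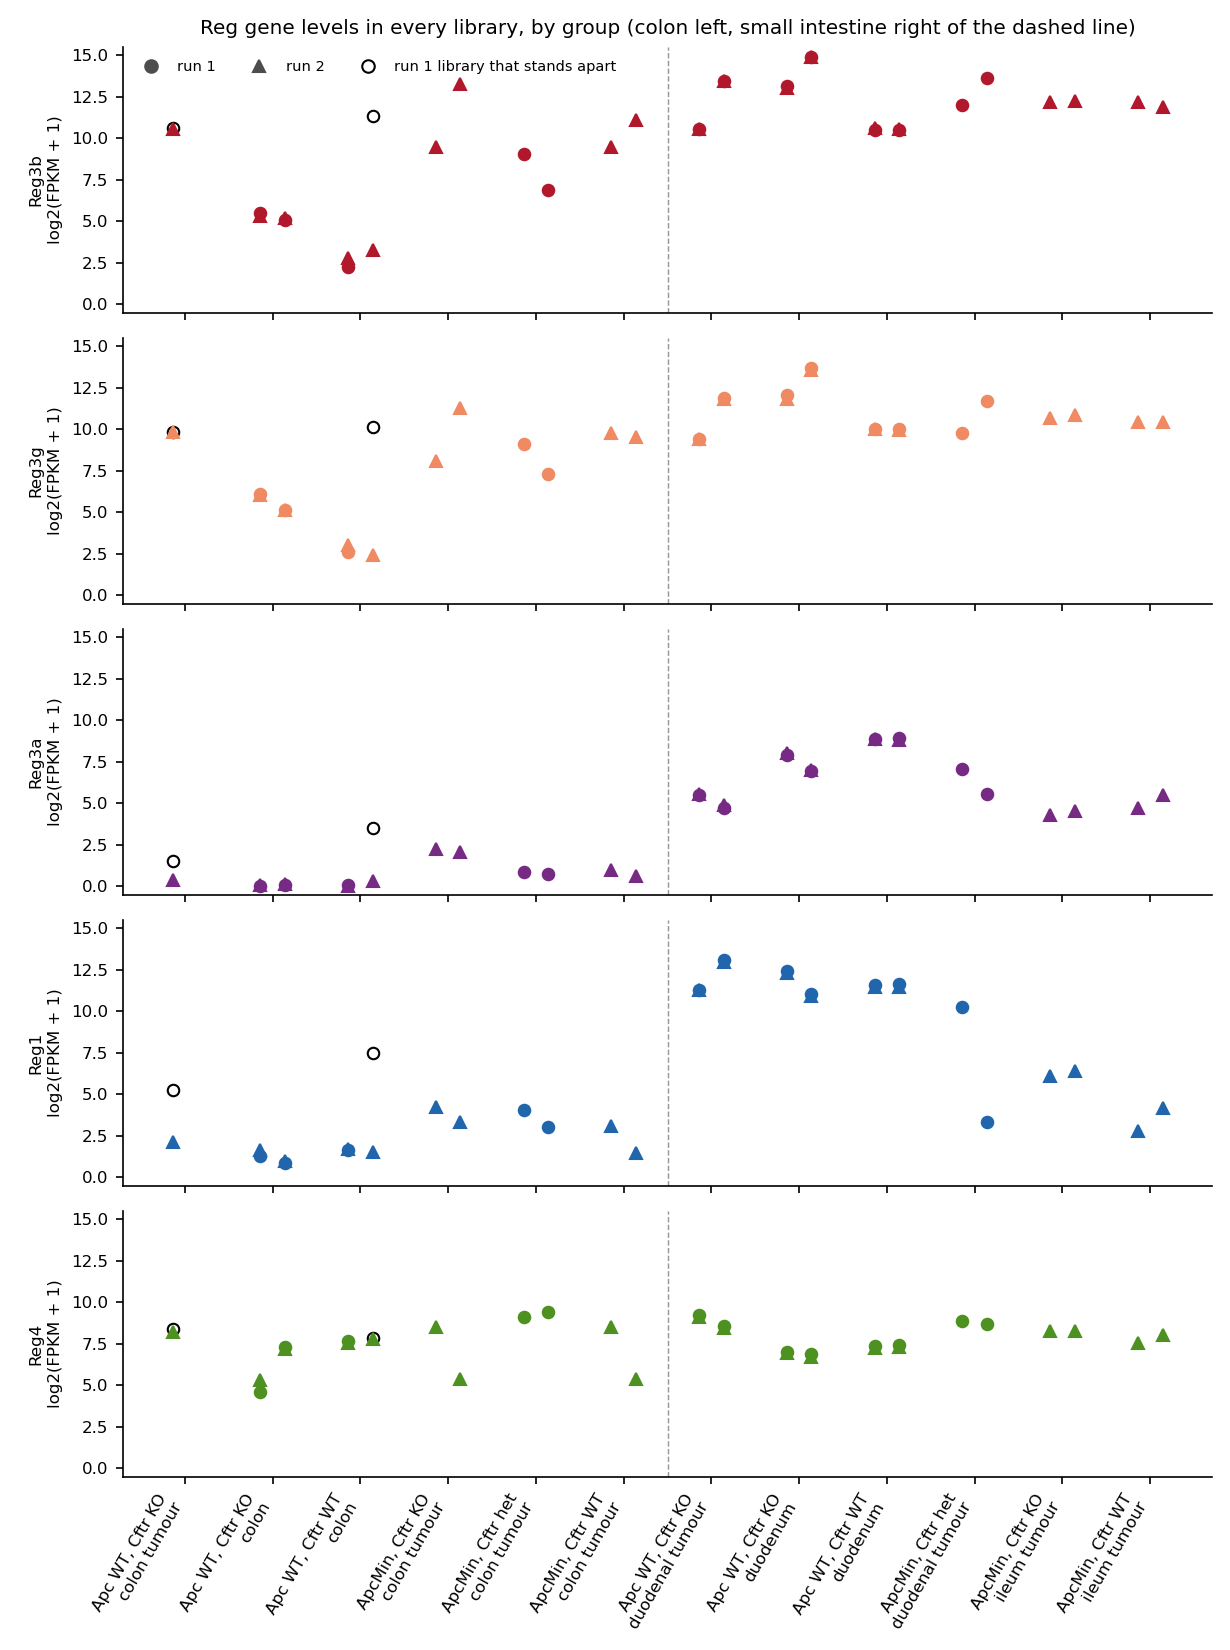
Level of each Reg gene as log2(FPKM + 1) in every library, by group (KO, knockout, het, heterozygous, WT, wildtype), with circles for run 1, triangles for run 2 and open circles for the run 1 libraries of wildtype colon 2 and of the Apc wildtype knockout colon tumour. Reg3a separates small intestine from colon, Reg3b and Reg3g reach their lowest levels in normal colon, and Reg4 is present at 23.4 FPKM or more in every library.

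Per transcript length, Reg3b was the most abundant of the 5 in most small-intestinal specimens. Over all 23 specimens it ran from 4.89 to 30173 FPKM (median 1565), a 6174-fold range, and it was the gene with the highest FPKM of the whole table in knockout duodenum 2, knockout duodenal tumour 2 and ApcMin knockout colon tumour 2. Reg3g ran from 6.10 to 12797 FPKM (median 913). Reg1 ran from 0.897 to 8233 FPKM and Reg3a from 0.0280 to 469 FPKM. Reg4 varied least, from 31.4 to 672 FPKM, a 21.4-fold range. Together the 5 genes made up 6.07% of all FPKM in knockout duodenum 2 and 2.48% in knockout duodenum 1, against 0.890% and 0.884% in wildtype duodenum. In normal knockout colon they made up 0.0251% and 0.0370%.

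Reg3a separated the organs, and Reg1 did not. Reg3a was at 18.3 to 469 FPKM in the 12 small-intestinal specimens and at 0.0280 to 5.25 FPKM in the 11 colon specimens, with no overlap. Separation of the organs was not counted over all genes. Its highest value in colon came from the library of wildtype colon 2 that stood apart. Reg1 was at 5.97 to 8233 FPKM in small intestine and at 0.897 to 90.2 FPKM in colon. The ranges overlapped, with ApcMin wildtype ileum tumours (5.97 and 16.8 FPKM), heterozygous duodenal tumour 2 (8.92 FPKM) and ApcMin knockout ileum tumours (67.3 and 83.6 FPKM) below wildtype colon 2 (90.2 FPKM). That 90.2 FPKM also came from the library that stood apart, as run 2 gave 1.88 FPKM. Without that library the highest colon value was 20.2 FPKM, in the Apc wildtype knockout colon tumour (3.34 FPKM in its run 2 library). The ApcMin knockout ileum tumours then lay above every colon specimen, while the other small-intestinal specimens named stayed within the colon range.

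Normal duodenum held far more of the 4 cluster lectins than normal colon. Reg1 was at 5359 and 2013 FPKM in knockout duodenum and at 2955 and 3014 FPKM in wildtype duodenum, against 1.77 and 0.897 FPKM in knockout colon and 2.22 and 90.2 FPKM in wildtype colon. Reg3b was at 8621 and 30173 FPKM in knockout duodenum and at 1538 and 1486 FPKM in wildtype duodenum, against 41.8 and 34.6 FPKM in knockout colon and 4.89 and 1304 FPKM in wildtype colon. Reg3g was at 3945 and 12797 FPKM in knockout duodenum and 1037 and 1014 FPKM in wildtype duodenum, against 65.7 and 34.2 FPKM in knockout colon and 6.10 and 573 FPKM in wildtype colon. All duodenal specimens lay above all colon specimens for these genes. How many of all genes separated in this way was not counted. With limma and Benjamini-Hochberg adjustment over 14096 genes, the log2 change of duodenum minus colon was 8.97 for Reg1 (SE 1.44, adjusted p = 0.000194), 7.45 for Reg3a (SE 0.53, adjusted p = 2.44e-07), 6.40 for Reg3b (SE 1.55, adjusted p = 0.00362) and 5.60 for Reg3g (SE 1.29, adjusted p = 0.00265). Thus 4 of 5 members rose, where 28.5% of all genes tested were called higher and 55.6% were called in either direction. Reg4 had a log2 change of 0.18 (adjusted p = 0.87), which turned to -0.16 under quantile normalisation.

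Paneth and enterocyte markers moved the same way, with 10 of 11 and 13 of 14 higher in duodenum, while 7 of 8 colonocyte markers tested were lower. Of 10 goblet markers 6 were lower and 1 higher, of 12 enteroendocrine markers 4 were higher and 2 lower, of 9 general epithelial markers 2 were higher and 4 lower, and 4 of 7 T cell and innate lymphoid and 2 of 10 neutrophil markers were higher. Of 10 pancreatic acinar markers tested 3 were higher and 2 lower. In bulk tissue more cells of a type and more RNA per cell cannot be told apart. Extl3, a cell-surface protein proposed as a receptor of Reg proteins, and Egfr, the epidermal growth factor receptor, which is reported to act with it, both fell (log2 changes of -0.73 and -0.58, adjusted p = 6.59e-05 and 0.00695). Of the 22 other genes known to respond to interleukin 22, STAT3 or MyD88, 2 were higher and 4 lower (median 0.03). Without the library that stood apart the log2 changes were 10.21 for Reg1, 8.04 for Reg3a, 8.16 for Reg3b and 7.29 for Reg3g. With the animal as a replicate block in limma the 4 genes remained called (adjusted p of 0.000419 to 0.014). That fit held normal specimens only and counted the wildtype duodenum as 2 samples, although these differed by no more than their lanes did.

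In ApcMin tumours the organ difference passed for Reg3a. It was at 18.3 and 22.3 FPKM in knockout and 25.6 and 44.8 FPKM in wildtype ileum tumours, against 3.67 and 3.14 FPKM in knockout and 0.956 and 0.532 FPKM in wildtype colon tumours. The groups did not overlap, though the share of all genes without overlap was not counted here. The log2 change of ileum minus colon tumours for Reg3a was 3.30 (SE 0.48, adjusted p = 0.000294 by limma). It was the 1 member of 5 that rose, where 13% of all genes were called higher and 24.1% in either direction. Reg1 (1.83, SE 1.29), Reg3b (1.29), Reg3g (0.94) and Reg4 (1.10) did not pass (adjusted p of 0.296 to 0.603). ApcMin knockout colon tumours held 709 and 9780 FPKM of Reg3b, while the knockout ileum tumours held 4630 and 4917 FPKM. The colon and ileum tumours of a genotype came from 1 animal, so the spread within these groups is that between tumours of an animal. The test had no term for the animal and pooled this spread with that of all other groups. Small-intestinal markers were higher in ileum tumours too, with 7 of 11 Paneth and 12 of 14 enterocyte markers called, while 5 of 8 colonocyte markers were lower. Of the T cell and innate lymphoid markers 3 of 7 were higher, of the enteroendocrine ones 4 of 12, and 4 of 10 neutrophil markers were lower and 1 higher. Their part in the Reg3a level was not tested.

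Colon tumours of ApcMin mice held more Reg3b and Reg3g than normal colon. Both genes were compared in run 2 columns, where the library that stood apart plays no part. In Cftr wildtype mice Reg3b was at 721 and 2202 FPKM in colon tumours, against 6.03 and 8.80 FPKM in normal colon. Reg3g was at 885 and 740 FPKM in these tumours, against 7.04 and 4.32 FPKM in normal colon. Every tumour lay above every normal specimen, where 69.8% of all genes tested did not overlap between the groups. The log2 change was 7.25 for Reg3b (SE 1.17, adjusted p = 0.00162 by limma) and 6.95 for Reg3g (SE 0.98, adjusted p = 0.00095). These were 2 of 5 members, where 19.1% of all genes were called higher and 38% in either direction. Reg3a (0.64), Reg1 (0.66) and Reg4 (-0.73) did not pass. Reg4 was at 355 and 40.1 FPKM in the tumours, against 182 and 219 FPKM in normal colon.

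In knockout mice the ApcMin colon tumours held 709 and 9780 FPKM of Reg3b, against 39.2 and 36.5 FPKM in normal colon in run 2. Reg3g was at 271 and 2446 FPKM in the tumours, against 64.7 and 34.8 FPKM in normal colon. Tumour 2 was the higher for both genes, and the groups did not overlap, as was the case for 61.8% of all genes tested. The log2 change was 6.09 for Reg3b (SE 1.17, adjusted p = 0.0122), 4.07 for Reg3g (SE 0.98, adjusted p = 0.0276), 2.02 for Reg3a (SE 0.34, adjusted p = 0.00762) and 2.48 for Reg1 (SE 0.70, adjusted p = 0.0471) by limma. These 4 of 5 members rose, where 5.26% of all genes were called higher and 10.9% in either direction. Reg1 was at 17.7 and 9.13 FPKM and Reg3a at 3.67 and 3.14 FPKM in these tumours, against 2.08 and 0.983 FPKM and 0.0579 and 0.117 FPKM in normal knockout colon. These calls were thin. Leaving out knockout colon 1 left 0 of 5 called, leaving out knockout colon 2 or tumour 2 left 1, and with these groups fitted alone 2 were called. Reg4 (0.68, adjusted p = 0.706) was at 366 and 40.3 FPKM in the tumours, against 39.4 and 145 FPKM in normal colon.

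The difference between the tumour changes of the Cftr genotypes was tested in the same fit. Knockout minus wildtype, it was -1.16 for Reg3b (adjusted p = 0.874), -2.88 for Reg3g (adjusted p = 0.592) and 1.38 for Reg3a (SE 0.48, adjusted p = 0.519), so the tumour changes of the genotypes are not shown to differ.

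Heterozygous ApcMin colon tumours held 538 and 116 FPKM of Reg3b and 550 and 157 FPKM of Reg3g. Both were sequenced in run 1, where wildtype colon held 3.75 and 2599 FPKM of Reg3b and 5.15 and 1142 FPKM of Reg3g. The groups overlapped through wildtype colon 2, and none of the 5 members passed (47.2% of genes were called in either direction, 7763 at an unadjusted p under 0.05). Without that library the tumours lay above the 1 remaining wildtype colon, which was taken to vary like the other groups, with a log2 change of 5.72 for Reg3b (SE 1.38, adjusted p = 0.0203 by limma) and 5.58 for Reg3g (SE 1.31, adjusted p = 0.0183), where 30.4% of genes were called. Reg4 was at 550 and 672 FPKM in these tumours, the highest of any group, against 204 and 227 FPKM in wildtype colon in run 1 (log2 change 1.49, adjusted p = 0.106).

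The single colon tumour of an Apc wildtype knockout mouse held 1565 FPKM of Reg3b and 913 FPKM of Reg3g, against 41.8 and 34.6 FPKM and 65.7 and 34.2 FPKM in normal knockout colon. Both lay above the normal specimens in each run. With the runs averaged, 85.6% of all genes tested did not overlap between the single tumour and normal knockout colon. The log2 changes were 5.33 for Reg3b (SE 2.40, adjusted p = 0.149) and 4.24 for Reg3g (adjusted p = 0.166), and none of 5 members passed limma's test, where 12.8% of genes were called in either direction and 4487 had an unadjusted p under 0.05. That fit took its spread partly from wildtype colon 2. Without its run 1 library Reg3b (adjusted p = 0.0353) and Reg3g (adjusted p = 0.0473) passed at the same log2 changes. Reg1 had a log2 change of 3.21 (adjusted p = 0.344), and 0.92 when the run 1 library of the tumour was left out too, a setting in which 13.5% of genes were called. Reg4 was at 315 FPKM in the tumour, against 31.4 and 152 FPKM in normal knockout colon (log2 change 2.17, adjusted p = 0.249).

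In duodenal tumours no member passed with all libraries. In Apc wildtype knockout mice Reg3a was at 45.2 and 27.1 FPKM in duodenal tumours, against 247 and 125 FPKM in knockout duodenum, and both tumours lay below both normal specimens. Its log2 change was -2.29 (SE 0.67, adjusted p = 0.0546 by limma). Without the run 1 library of wildtype colon 2 the SE was 0.43 and the adjusted p 0.00618, where 8.32% of genes were called in either direction. Reg3b was at 1515 and 11145 FPKM in these tumours, against 8621 and 30173 FPKM in knockout duodenum, and Reg3g at 675 and 3714 FPKM against 3945 and 12797 FPKM. Reg3b overlapped between the groups and Reg3g did not, and neither passed (log2 changes of -1.97 and -2.17, adjusted p = 0.605 and 0.474). Reg1 (0.47) and Reg4 (1.95) did not pass, so the count was 0 of 5, where 8.17% of genes were called in either direction and 3265 had an unadjusted p under 0.05. Reg4 was at 574 and 362 FPKM in the tumours, against 126 and 109 FPKM in knockout duodenum, with no overlap. Thus 3 of 5 members did not overlap between these groups, as was the case for 56.9% of all genes tested.

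Heterozygous ApcMin duodenal tumours differed from each other in Reg1 139-fold. Tumour 1 held 1241 FPKM and tumour 2 held 8.92 FPKM, against 3041 and 3170 FPKM in wildtype duodenum in run 1. Tumour 2 held more Reg3b (12484 FPKM, against 4154 FPKM in tumour 1) and more Reg3g (3388 FPKM, against 863 FPKM), and its Paneth markers summed to 51196 FPKM, against 14176 FPKM in tumour 1. Reg3a was at 132 and 46.8 FPKM in the tumours, against 471 and 479 FPKM in wildtype duodenum. With 1 wildtype sample in this fit, none of 5 members passed (log2 changes of -4.81 for Reg1, -2.58 for Reg3a, 2.30 for Reg3b, 0.73 for Reg3g and 1.41 for Reg4, adjusted p of 0.221 to 0.893), where 6.8% of genes were called in either direction and 3453 had an unadjusted p under 0.05.

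Set against these heterozygous tumours, the duodenal tumours of Apc wildtype knockout mice held more Reg1 (2529 and 8583 FPKM in run 1, against 1241 and 8.92 FPKM). The groups did not overlap, though the share of all genes without overlap was not counted here. The log2 change of 5.39 (SE 2.30) for Reg1 did not pass (adjusted p = 0.254 by limma). Left without heterozygous tumour 1, the change was 8.88, with tumour 2 (8.92 FPKM) as the only heterozygous specimen. Its size thus depended on which of 2 tumours from 1 animal was kept. No member passed with all specimens, where 1.32% of genes were called in either direction and 2666 had an unadjusted p under 0.05.

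**Figure D4:**
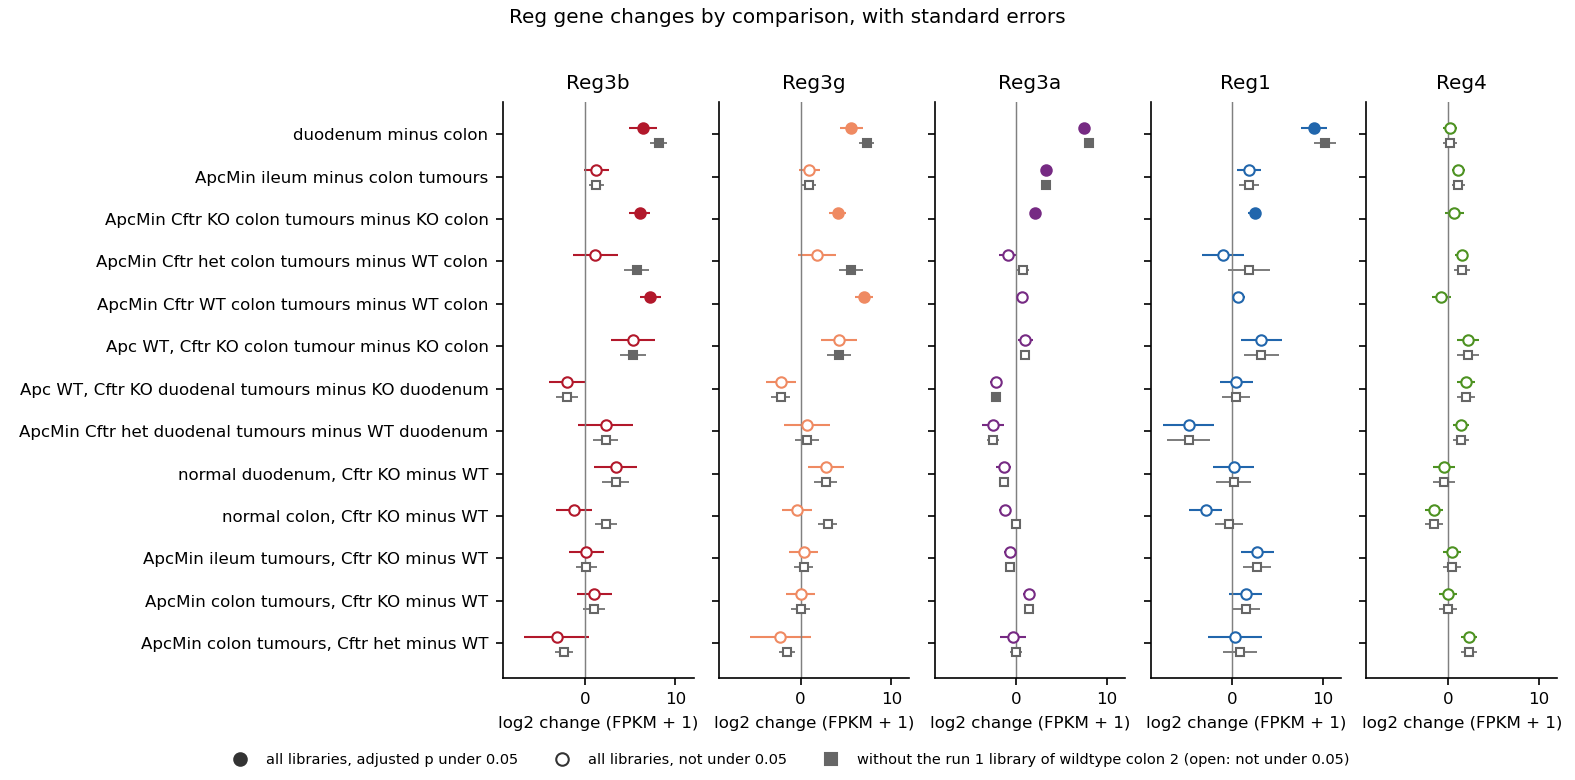
Log2 change of each Reg gene, on the log2(FPKM + 1) scale, in 13 comparisons (rows; KO, knockout, het, heterozygous, WT, wildtype) with bars of 1 SE. Circles use all libraries, squares leave out the run 1 library of wildtype colon 2, and filled symbols have an adjusted p under 0.05. Reg3b and Reg3g lie at 4.07 to 7.25 in the ApcMin knockout and wildtype colon tumours, and Reg3a at -2.29 in the knockout duodenal tumours.

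Loss of Cftr gave no call for any member in normal tissue. In normal duodenum Reg3b was at 8621 and 30173 FPKM in knockout and at 1538 and 1486 FPKM in wildtype, and Reg3g at 3945 and 12797 FPKM in knockout and at 1037 and 1014 FPKM in wildtype. Both knockout specimens lay above the wildtype ones, but they differed from each other 3.50-fold in Reg3b and 3.24-fold in Reg3g. Of all genes tested, 63.5% did not overlap between these groups, with the wildtype duodenum as 1 sample. The log2 change was 3.41 (SE 2.40) for Reg3b and 2.79 (SE 2.00) for Reg3g, and limma's adjusted p was 1 for both, where 0 of 14096 genes passed and 367 had an unadjusted p under 0.05. With the wildtype duodenum as 1 sample, the test rests on 2 knockout animals against 1 sample. Its spread came partly from wildtype colon 2, whose run 1 library stood apart. For this change minus that in ApcMin colon tumours, leaving that library out took the SE from 3.10 to 1.90 for Reg3b. The SE for Reg3g went from 2.59 to 1.64. Reg3a lay lower in both knockout specimens (247 and 125 FPKM) than in wildtype (469 and 465 FPKM), with a log2 change of -1.41 (adjusted p = 1). Knockout duodenum 1, which had the more Reg1 (5359 FPKM, against 2013 FPKM in knockout duodenum 2), had pancreatic acinar markers summing to 2370 FPKM with none at 0, against 193 FPKM in knockout duodenum 2 and 425 and 421 FPKM in wildtype duodenum. Reg1 is also an acinar product, and the part of pancreatic RNA in its level was not tested.

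In normal colon the direction of Reg3b and Reg3g depended on 1 library. With all libraries the log2 changes of knockout minus wildtype were -1.17 for Reg3b and -0.40 for Reg3g, and without the run 1 library of wildtype colon 2 they were 2.36 (SE 1.20, adjusted p = 0.713) and 2.98 (SE 1.04, adjusted p = 0.537). In run 2, Reg3b was at 39.2 and 36.5 FPKM in knockout colon, against 6.03 and 8.80 FPKM in wildtype colon, with no overlap. Reg3g was at 64.7 and 34.8 FPKM in knockout colon, against 7.04 and 4.32 FPKM in wildtype colon. In run 1 the wildtype colon 1 library, with 3.75 FPKM of Reg3b and 5.15 FPKM of Reg3g, also lay below both knockout specimens (44.5 and 32.7 FPKM and 66.7 and 33.7 FPKM). Neither setting gave a call for any gene (0 of 14096 in limma's test, while 947 had an unadjusted p under 0.05 in all libraries). Reg4 ran the other way, at 31.4 and 152 FPKM in knockout colon against 193 and 223 FPKM in wildtype colon (log2 change -1.57, adjusted p = 0.843 by limma). With all libraries 2 of 5 members did not overlap between these groups, as was the case for 49.3% of all genes tested.

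Between knockout and wildtype ApcMin tumours no member passed in either organ. In colon tumours Reg3b, Reg3g and Reg4 overlapped between the genotypes, while 32.7% of all genes tested did not. Reg1 was at 17.7 and 9.13 FPKM in knockout and at 7.44 and 1.79 FPKM in wildtype colon tumours, without overlap (log2 change 1.5, adjusted p = 0.762 by limma). Reg3a was at 3.67 and 3.14 FPKM in knockout and at 0.956 and 0.532 FPKM in wildtype tumours, without overlap (log2 change 1.35, adjusted p = 0.449), and 0 of 5 members passed, where 0.0638% of genes did and 1708 had an unadjusted p under 0.05. In ileum none of the 5 members overlapped between the genotypes, as was the case for 40.6% of all genes tested, and Reg3a lay lower in the knockouts and the other 4 higher. Reg1 was at 67.3 and 83.6 FPKM in knockout and at 5.97 and 16.8 FPKM in wildtype ileum tumours (log2 change 2.77, adjusted p = 0.999). Reg3g was at 1629 and 1889 FPKM in knockout and at 1399 and 1377 FPKM in wildtype ileum tumours, and Reg3a at 18.3 and 22.3 FPKM in knockout and 25.6 and 44.8 FPKM in wildtype. Reg3b was at 4630 and 4917 FPKM in knockout and at 4580 and 3782 FPKM in wildtype ileum tumours, and Reg4 at 309 and 303 FPKM in knockout and 188 and 260 FPKM in wildtype. The count in ileum was 0 of 5, where 0.121% of genes did and 825 had an unadjusted p under 0.05. The difference of these changes between ileum and colon tumours gave 0 calls in 14096 genes in limma's test, and 676 genes had an unadjusted p under 0.05.

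Heterozygous and wildtype ApcMin colon tumours were sequenced in different runs and were compared with a term for the run. Reg4 was at 550 and 672 FPKM in heterozygous tumours and at 355 and 40.1 FPKM in wildtype tumours, with no overlap, and had a log2 change of 2.30 (adjusted p = 0.162). Leaving out wildtype tumour 1 (355 FPKM) made it 3.85, with tumour 2 (40.1 FPKM) as the only wildtype specimen. Its size thus depended on which of 2 tumours from 1 animal was kept. Reg3b was at 538 and 116 FPKM in heterozygous and at 721 and 2202 FPKM in wildtype tumours (log2 change -3.10). Reg3g was at 550 and 157 FPKM in heterozygous and at 885 and 740 FPKM in wildtype tumours (-2.24). The run term drew on the library that stood apart. In wildtype colon 2 the log2 difference of run 1 minus run 2 was 8.05 for Reg3b and 7.75 for Reg3g. Both changes are given with that library only, so their size depends on it. Neither Reg3b nor Reg3g overlapped between the groups, and neither passed. For this comparison the share of all genes without overlap was not counted. None of 5 members was called, where 1.79% of genes were and 2428 had an unadjusted p under 0.05.

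Reg3b and Reg3g varied together across specimens, but not at a fixed ratio. Their log2(FPKM + 1) values had a Pearson r of 0.978 over 22 samples, a description over samples that share libraries, organs and animals. Reg1 and Reg3a had an r of 0.807, and Reg4 had 0.0356 to 0.234 with the other members. The ratio of Reg3b to Reg3g was 0.637 and 1.01 in normal knockout colon and 0.802 and 2.27 in normal wildtype colon, where the run 2 library of wildtype colon 2 gave 2.04. It was 1.71 in the Apc wildtype knockout colon tumour, 2.62 and 4.00 in ApcMin knockout colon tumours, 0.979 and 0.739 in heterozygous ones and 0.815 and 2.97 in wildtype ones. In duodenum it was 2.19 and 2.36 in knockouts and 1.48 and 1.47 in wildtypes, and small-intestinal tumours lay between 2.25 and 4.81. Every small-intestinal specimen thus held more Reg3b than Reg3g per transcript length, while colon specimens fell on both sides of equality.

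**Figure D5:**
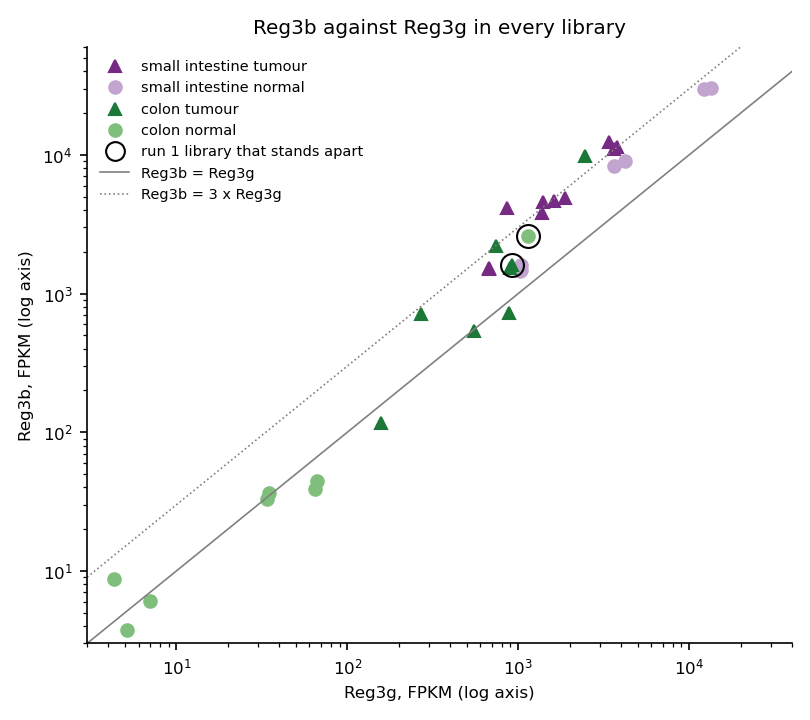
Reg3b (vertical) against Reg3g (horizontal) in FPKM (log axes) in every library, by organ and tissue, with lines of equal level and of Reg3b at 3 times Reg3g and the run 1 libraries that stand apart ringed. Colon libraries lie on both sides of the line of equality, from a ratio of 0.637 to one of 4.00 by specimen, and small-intestinal libraries lie on the Reg3b side.

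Levels ordered the groups differently for each gene. Reg3a was highest in wildtype duodenum (467 FPKM), which did not overlap with the next group, knockout duodenum (186 ± 86.3 FPKM, SD, n = 2), and lowest in knockout colon (0.0588 ± 0.0423 FPKM, n = 2). For Reg1 the first 3 groups were knockout duodenal tumours (5367 ± 4052 FPKM, n = 2), knockout duodenum (3686 ± 2366 FPKM, n = 2) and wildtype duodenum (2984 FPKM), and neighbours among these overlapped. Knockout duodenum led for Reg3b (19397 ± 15240 FPKM, n = 2) and Reg3g (8371 ± 6259 FPKM, n = 2). Only for Reg3g did it not overlap with the next group, knockout duodenal tumours (2194 ± 2149 FPKM, n = 2). Reg4 was highest in heterozygous ApcMin colon tumours (611 ± 86.6 FPKM, n = 2), overlapping with knockout duodenal tumours (468 ± 150 FPKM, n = 2), and lowest in knockout colon (91.5 ± 85.0 FPKM, n = 2).

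Genes outside the family with the most similar pattern were ranked by Pearson r over the 22 samples among 10934 genes, as a description. For Reg3a they were Rdh7 (0.980), Slc5a11 (0.979) and Tmem86b (0.975), and for Reg1 they were Slc25a28 (0.968), Gm766 (0.965) and Bri3bp (0.954). For Reg3b they were AI747448 (0.859), Eif4e3 (0.841) and Lgals2 (0.816), and for Reg3g AI747448 (0.838), Eif4e3 (0.817) and Slc7a6os (0.801). Reg4 had Apobec2 (0.814), Nae1 (0.764) and Sipa1l2 (0.746). Without the library that stood apart, Klhdc4 was first for Reg3b (0.915) and Reg3g (0.927).

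Among 22 other genes known to answer to interleukin 22, STAT3 or MyD88, more were called higher than lower in each group of colon tumours. In ApcMin wildtype colon tumours 12 of 22 were higher and 2 lower than in wildtype colon, where 38% of all genes were called (median log2 change 2.63, against -0.00127 over all genes), among them the phospholipase Pla2g2a (5.78), the iron-binding lipocalin Lcn2 (5.35), the acute-phase protein Saa3 (5.07) and the calprotectin subunit S100a9 (6.54). ApcMin knockout colon tumours had 11 higher and 0 lower, where 10.9% of all genes were called (median 2.02), with the chemokine Cxcl5 at 4.82, the cornified envelope protein Sprr2h at 3.70, Pla2g2a at 3.63 and Saa3 at 3.37. Heterozygous colon tumours had 10 higher and 2 lower (median 1.80), a share called that is near the 47.2% of all genes, and 10 higher and 1 lower without the library that stood apart. The colon tumour of the Apc wildtype knockout had 9 higher and 1 lower, where 12.8% of all genes were called (median 1.86), with Saa3 at 246 FPKM, against 3.44 and 4.13 FPKM in knockout colon. In duodenal tumours of Apc wildtype knockouts 4 were higher and none lower (median 1.10), where 8.17% of all genes were called, although Reg3b and Reg3g were not called. The median was 1.67 in duodenal tumours of heterozygous ApcMin mice. No member of this list was called for knockout against wildtype in normal tissue or in ApcMin tumours.

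The sensing and cytokine genes upstream were counted as a second list. Of all genes, 38% were called in ApcMin wildtype, 10.9% in ApcMin knockout and 47.2% in heterozygous colon tumours. In Apc wildtype knockout duodenal tumours 8.17% were called. For the single colon tumour and heterozygous duodenal tumours, whose fits held 1 sample in a group, the shares are given with their comparisons above. Il22 itself was at 0 to 0.434 FPKM in all 23 specimens, below the level tested, with its highest value in knockout duodenum 2. Of 23 genes tested, 7 were higher and 5 lower in ApcMin wildtype colon tumours, 6 higher and 1 lower in ApcMin knockout ones, 6 higher and 8 lower in heterozygous ones and 7 higher in the single Apc wildtype knockout tumour of colon. In duodenal tumours 2 were higher and 1 lower in Apc wildtype knockouts, and 2 were higher in heterozygous ApcMin mice. Socs3, a feedback inhibitor of STAT3, rose by 1.62 in ApcMin wildtype, 1.74 in ApcMin knockout and 1.90 in the Apc wildtype knockout colon tumours on the log2 scale. Il22ra2, a soluble decoy receptor of interleukin 22, fell by 2.91 in ApcMin wildtype and by 1.91 in ApcMin knockout colon tumours. Egfr rose in ApcMin wildtype colon tumours (log2 change 0.68, adjusted p = 0.00842) and in Apc wildtype knockout duodenal tumours (0.76, adjusted p = 0.0341), and Extl3 was not called in any tumour comparison.

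Markers of other cells were counted in the colon tumours too. Of all genes, 38% were called in either direction in ApcMin wildtype, 47.2% in heterozygous and 10.9% in ApcMin knockout colon tumours. The share for the Apc wildtype knockout colon tumour, a single specimen, is given above. A count at or below these shares does not set a list apart from all genes. All 10 neutrophil markers were higher in ApcMin wildtype and in heterozygous colon tumours than in wildtype colon, and 4 and 7 of them in ApcMin knockout and Apc wildtype knockout colon tumours against knockout colon. Their summed level was 189 and 73.6 FPKM in ApcMin knockout, 1616 and 2119 FPKM in heterozygous and 857 and 146 FPKM in ApcMin wildtype colon tumours, against 9.58 and 8.05 FPKM in knockout colon and 6.09 and 5.84 FPKM in wildtype colon. Of 11 Paneth markers 7 were higher in ApcMin wildtype, 6 in ApcMin knockout, 3 in heterozygous (6 without the library that stood apart) and 2 in the Apc wildtype knockout colon tumours. Their sums were 1485 and 837 FPKM in ApcMin knockout, 6155 and 3242 FPKM in heterozygous and 8378 and 1366 FPKM in ApcMin wildtype colon tumours, against 791 and 583 FPKM in knockout colon and 1608 and 914 FPKM in wildtype colon. Of 14 small-intestinal enterocyte markers 7 were higher in ApcMin knockout colon tumours, while 2 were lower in ApcMin wildtype ones, 5 in heterozygous ones and 1 in the Apc wildtype knockout one. Of 10 pancreatic acinar markers tested, 1 or 2 were higher in each of these 4 groups of colon tumours and none was lower. Of 10 goblet markers 4 were lower in ApcMin wildtype, 2 in ApcMin knockout, 4 in heterozygous and 3 in the Apc wildtype knockout colon tumours, while 1 was higher in ApcMin wildtype and in heterozygous ones. Colonocyte markers were lower for 6 of 8 tested in ApcMin wildtype and heterozygous tumours, for 2 in ApcMin knockout and for 1 in Apc wildtype knockout tumours. Enteroendocrine markers were lower for 9 of 12 in ApcMin wildtype and heterozygous tumours and for 2 in the other colon tumours. Of 9 general epithelial markers, 1 was higher in ApcMin wildtype and in heterozygous tumours, 1 and 4 were lower there, and 1 was lower in the Apc wildtype knockout one. Of 7 lymphocyte markers tested, 3, 3 and 1 were lower in ApcMin wildtype, heterozygous and ApcMin knockout colon tumours. The part of any of these cell types in the Reg values was not tested.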

How the data were processed

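RNA from 23 specimens was read over several lanes and in up to 2 runs. Per the labels, a Qiagen kit gave RNA from tissue in RNAlater, and intact RNA went into poly-A TruSeq libraries for a HiSeq instrument. The authors deposited their expression values as FPKM, in 68 columns over 23356 rows. TopHat2 2.0.13, Cuffnorm and FastQC (no versions given for either) and the mm10 build come from the submitters' processing notes. The library strand and the handling of shared reads are likewise not given. Dates stood in place of 27 gene names, and 2 names occurred more than once. FPKM carries no counts, so no counting interval is given. None of the 68 columns lacked a sample.

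Log2 values were computed from the deposited FPKM after averaging a specimen's columns and adding 1, a scale that understates changes of low genes. Tests used limma 3.58.1 in R 4.3.3 with a mean-variance trend, on the 14096 genes that reached 1 FPKM in 2 or more specimens, with Benjamini-Hochberg adjustment over all of them and a threshold of 0.05. All 5 members were among these genes. Every group shared the estimate of spread. Knockout and wildtype ApcMin colon tumours were set against normal colon in run 2 columns only. Run 1 columns only were used for heterozygous tumours against normal tissue and for the comparison of duodenal tumours. The heterozygous and wildtype ApcMin colon tumours were compared with a run term and a random effect of specimen (consensus correlation 0.877). The single knockout colon tumour was assumed to vary like the other groups. Permuting 2 against 2 specimens gives no p under 0.333. The fits were tested on simulated data.

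The design text counts 23 mice and 3 normal animals per Cftr genotype, while the labels hold 10 animal numbers and 2 normal animals per genotype. Normal duodenum and colon came from the same animals, which pairs them. Deviations of same-animal specimens from their group means correlated at 0.033 in knockouts and 0.01 in wildtypes. The wildtype value cannot inform on the pairing, because the wildtype duodenum specimens differed by no more than their lanes did. All 4 ApcMin knockout colon and ileum tumours came from 1 animal and all 4 wildtype ones from another, and the Apc wildtype knockout colon tumour shared its animal with duodenal tumour 2. Numbers pair no specimens there, and in the other comparisons they are shared as numbers only.

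The members and gene lists were chosen with earlier results of these data known. Named genes are the 5 members, at most 4 genes of a list per comparison in order of p, and the 3 genes with the highest Pearson r to each member. Saa3 levels, the Xist and Cftr levels, the tests of differences between changes and the setting without both run 1 libraries that stand apart were added after seeing the data. Alternatives tried were quantile normalisation, dropping the filter, 0.1 as pseudocount, fitting just the groups compared, single runs, a replicate block, the wildtype duodenum as 2 samples and leaving out libraries or specimens. Promoters of 7 of 7 Reg genes came from RefSeq (GRCm38.p6), and Biopython 1.88 in Python 3.11.15 gave alignments.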

Additional observations from a re-analysis of the deposited data

Results flagged for a closer look

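Changes were compared between pairs of settings for each member (8 pairs of comparisons, 5 genes each), and 8 differences are listed because every specimen moved one way in one setting and the opposite way in the other, as did 7.56% of all genes over these pairs. None passed limma's adjusted p over all genes with all libraries. For knockout minus wildtype, Reg1 was lower in both knockout colon specimens and higher in both knockout tumours of ApcMin colon and ileum, with differences of -4.41 (colon minus ApcMin colon tumours, adjusted p = 0.681) and -5.68 (colon minus ApcMin ileum tumours, adjusted p = 0.98). Without the run 1 library of wildtype colon 2 these were -1.91 (adjusted p = 0.836) and -3.18 (adjusted p = 0.954). Reg4 was lower in normal knockout tissue and higher in knockout ileum tumours, with differences of -2.04 for colon (adjusted p = 0.98) and -0.905 for duodenum (adjusted p = 1). Reg3a was higher in knockout ApcMin colon tumours and lower in knockout duodenum (difference of duodenum minus ApcMin colon tumours -2.75, adjusted p = 0.991) and in knockout ileum tumours (difference of ileum minus colon tumours -2.07, adjusted p = 0.935).

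In Apc wildtype knockout mice, tumour minus normal was negative in duodenum and positive in colon for Reg3a and Reg3g. The difference of the changes, duodenum minus colon, was -3.29 for Reg3a (SE 1.06, adjusted p = 0.104) and -6.40 for Reg3g (SE 2.59, adjusted p = 0.174). Without the run 1 library of wildtype colon 2 the adjusted p was 0.0257 for Reg3a and 0.0549 for Reg3g. The colon side is 1 tumour, from the animal of duodenal tumour 2, and Reg3a in its run 1 library stood at 1.93 FPKM, against 0.292 FPKM in run 2.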

How the results depend on the processing

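Counts of members called moved by more than 1.5 times, or away from or to 0, in 7 comparisons, and the cause was not tested. Duodenal tumours of Apc wildtype knockouts against duodenum went to 1 of 5 (0 with all libraries) with the wildtype duodenum as 2 specimens, without the run 1 library of wildtype colon 2, in run 2 columns only, and with a replicate block (Reg3a, adjusted p = 0.0457). The replicate block was fitted with the wildtype duodenum as 2 specimens, so the part of the block alone was not tested. No replicate block changed another count. The numbers there are shared as numbers only, with deviations correlating at -0.24 to 0.35. The single knockout colon tumour had 0 with all libraries, 4 with the compared groups alone, and 2 without the run 1 library of wildtype colon 2, without both libraries that stand apart, and in run 2 only. With the compared groups alone, ApcMin knockout colon tumours had 2 (4 with all groups), heterozygous colon tumours 1 (0 with all groups) and ileum minus colon tumours 2 (1 with all groups). Heterozygous colon tumours had 2 without the run 1 library of wildtype colon 2. Leaving out 1 specimen at a time gave 0 to 3 for ApcMin knockout colon tumours, 0 to 2 for heterozygous colon tumours, and 0 to 1 for heterozygous against wildtype colon tumours and for knockout against heterozygous duodenal tumours.

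Log2 changes of members changed sign under these settings. Knockout minus wildtype colon turned to 2.36 for Reg3b and 2.98 for Reg3g without the run 1 library of wildtype colon 2, and to 2.23 and 2.89 in run 2 only. Quantile normalisation gave -0.058 for Reg3g and -0.11 for Reg4 in ApcMin colon tumours (knockout minus wildtype), and -0.16 for Reg4 in duodenum minus colon. Without the run term Reg3a was 0.020 in heterozygous minus wildtype colon tumours. Without the run 1 library of wildtype colon 2, heterozygous colon tumours minus colon gave 1.86 for Reg1 and 0.73 for Reg3a.

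Leaving out 1 specimen at a time changed signs as well. For knockout minus wildtype colon the ranges were -2.56 to 0.042 (Reg3a), -5.06 to 2.73 (Reg3b) and -3.57 to 2.77 (Reg3g), for duodenum -0.57 to 0.84 (Reg1), and for ApcMin colon tumours -0.83 to 2.96 (Reg3b), -1.58 to 1.59 (Reg3g) and -1.55 to 1.60 (Reg4). Heterozygous minus wildtype colon tumours gave -0.46 to 1.14 (Reg1). Tumour minus normal gave -0.39 to 1.33 for Reg1 in knockout duodenum, -0.14 to 1.46 for Reg1 and -2.29 to 0.83 for Reg4 in ApcMin wildtype colon, and -0.90 to 2.26 for Reg4 in ApcMin knockout colon. Heterozygous tumours minus normal gave -3.97 to 1.86 (Reg1), -2.68 to 0.73 (Reg3a), -3.37 to 5.72 (Reg3b) and -1.96 to 5.58 (Reg3g) in colon, and -0.26 to 1.71 (Reg3g) in duodenum. Knockout minus heterozygous duodenal tumours gave -2.23 to 0.65 (Reg3b), -1.33 to 1.14 (Reg3g) and -0.21 to 0.45 (Reg4). Duodenum minus colon gave -0.38 to 0.74 (Reg4). The ileum minus colon difference of the knockout minus wildtype change gave -2.76 to 1.03 (Reg3b), -1.26 to 1.91 (Reg3g) and -1.13 to 2.02 (Reg4). The single knockout colon tumour could not be left out. Reg3a passed in ApcMin wildtype colon tumours at a pseudocount of 0.1 (2.15, adjusted p = 0.0116), making 3 of 5 called (2 at a pseudocount of 1), and ApcMin knockout colon tumours had 3 of 5 without the filter.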

Other observations

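The cluster holds 2 more Reg genes, both at low levels in most specimens. Reg2, which lies between Reg3a and Reg1, was at 12.3 FPKM in knockout duodenum 1 and at 1.94 FPKM in knockout duodenal tumour 2, and at most 0.156 FPKM in the other specimens. Knockout duodenum 1 was also the specimen with the highest pancreatic acinar marker sum (2370 FPKM). Reg3d, between Reg3b and Reg3a, was at 3.54 and 1.00 FPKM in knockout duodenum and 1.54 and 1.43 FPKM in wildtype duodenum. It rose in duodenum against colon (log2 change 1.45, adjusted p = 6.17e-05 by limma) and fell in duodenal tumours of Apc wildtype knockouts against knockout duodenum (-1.27, adjusted p = 0.00923). Its promoter window, like that of Reg3b, held TTCNNNGAA and CACCTG.

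This pattern was noticed in the values. In the ApcMin colon tumours of knockout and of wildtype mice, the tumour with more Reg3b had less Reg4. Knockout tumour 2 held 9780 FPKM of Reg3b and 40.3 FPKM of Reg4, against 709 and 366 FPKM in tumour 1. Wildtype tumour 2 held 2202 FPKM of Reg3b and 40.1 FPKM of Reg4, against 721 and 355 FPKM in tumour 1. In heterozygous tumours Reg4 was at 550 and 672 FPKM with 538 and 116 FPKM of Reg3b. With 2 tumours from 1 animal in each group, this was not tested.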
